A study of Homo sapiens with 12 samples.

Results

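Wild-type MEC1, a human B cell leukaemia line, was set against the wild-type libraries of the other lines of the study to describe what MEC1 cells express before any U1 mutation is considered. The MEC1 libraries labelled wild type for U1, RNU1_3 in the titles (the small nuclear RNA that marks the start of introns for the spliceosome), were taken by their labels, 2 of the 12 libraries. They were compared with 2 wild-type HG3 and 2 wild-type JVM3 libraries, and the 6 libraries with mutant U1 were not used. All 3 lines are labelled as chronic lymphocytic leukaemia (CLL), a cancer of mature B cells, and carry no further treatment, genotype or time in the labels. How the wild-type and mutant cells were made remains not given in the sources used here. Each group is therefore 1 line with 2 technical replicates, so p-values measure the spread between technical replicates only, and a difference between lines is not a difference between patients or diseases.

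As background, MEC1 was derived from CLL in prolymphocytoid transformation and is used as a model of that disease. The transcription factor p53 responds to DNA damage by switching on genes that halt the cell cycle, repair DNA and trigger apoptosis, and it also switches on MDM2, the ubiquitin ligase that degrades p53. A B cell carries a rearranged immunoglobulin receptor, may mutate and class-switch that receptor in a germinal centre, and responds to CD40 and NF-kB signals by displaying costimulatory molecules.

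Gene counts were 29880079 to 34786778 per library in MEC1, 30109919 to 35828168 in HG3 and 30065307 to 35864935 in JVM3. Levels are given as CPM, the gene's counts per 1e6 counts of the library after TMM scaling, which does not correct for gene length. A gene was called where it differed from HG3 and from JVM3, each by at least 2-fold and in the same direction, with an adjusted p under 0.05 by edgeR's quasi-likelihood test (the larger of the 2 p-values per gene, Benjamini-Hochberg over 19740 genes). By this rule 1709 genes (8.66%) were higher in MEC1 and 2503 (12.7%) were lower, 21.3% in all. Across all genes tested the median log2 difference, MEC1 minus the other line, was -0.03 against HG3 and against JVM3. Reads outside annotated features made up 17.72% and 18.97% in MEC1, against 21.24% and 23.39% in HG3 and 21.92% and 21.36% in JVM3. Their part in the results was not tested. In bulk RNA, fewer cells of a type and less RNA per cell cannot be told apart.

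Genes that p53 switches on were low in MEC1. Of 25 listed p53 target genes, all of them tested, 20 were lower in MEC1 than in both lines, where 12.7% of all genes were, and 0 were higher. The median log2 difference was -2.39 against HG3 and -2.32 against JVM3.

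CDKN1A, which encodes the cell-cycle inhibitor p21, had 71.3 and 70.7 CPM in MEC1, against 696 and 663 CPM in HG3 and 681 and 676 CPM in JVM3. The HG3 and JVM3 libraries shared almost the same level, and MEC1 stood 3.26 lower than either on the log2 scale (SE 0.04, adjusted p = 1.78e-49 by edgeR). EDA2R, a death receptor of the tumour necrosis factor receptor family, had no count in either MEC1 library, against 71.7 and 71.3 CPM in HG3 and 45.7 and 47.6 CPM in JVM3. Set against a floor of 3 counts over both MEC1 libraries, it was at least 1635-fold lower than in HG3 and at least 1068-fold lower than in JVM3. PHLDA3, an inhibitor of AKT signalling, had 0.163 and 0.0631 CPM in MEC1, against 49.8 and 48.2 CPM in HG3 and 64.5 and 65.5 CPM in JVM3. The damage sensor gene GADD45A had 1.41 and 1.48 CPM in MEC1, against 60.7 and 64.7 CPM in HG3 and 118 and 120.1 CPM in JVM3. In none of these 4 genes did the MEC1 libraries come near those of the other lines.

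The lower members came from several functional arms of the list. Among genes of apoptosis, BAX, the pore-forming effector, had log2 differences of -1.67 against HG3 and -1.93 against JVM3, BBC3, which encodes PUMA, of -2.39 and -2.32, and FAS, a death receptor, of -2.25 and -2.39. Among genes of DNA repair and nucleotide supply, DDB2 (-2.53 and -1.96) and XPC (-1.94 and -2.0), which recognise ultraviolet damage, were lower, as was RRM2B (-2.16 and -2.4), the p53-induced subunit of ribonucleotide reductase. Among genes of metabolism, TIGAR, a fructose bisphosphatase, stood at -2.42 and -2.35, FDXR, ferredoxin reductase, at -3.5 and -1.84, and SESN1, a sestrin that restrains mTORC1, at -4.75 and -4.1. The adjusted p of the called members ran from 1.78e-49 for CDKN1A to 1.59e-22 for TP53I3 by edgeR.

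The 5 members not called were CCNG1, BTG2, SESN2, SPATA18 and TP53INP1. CCNG1, SESN2 and BTG2 were below both lines but by less than 2-fold against JVM3 (log2 differences of -0.87, -0.84 and -0.77). TP53INP1 had 65.5 and 66.4 CPM in MEC1, against 81.1 and 82.1 CPM in HG3 and 53.3 and 54.5 CPM in JVM3, so it lay between the lines. SPATA18, a gene of mitochondrial quality control, had 0.19 and 0.0631 CPM in MEC1, against no count in HG3 and 5.85 and 6.31 CPM in JVM3. The list was low relative to both lines also when libraries were scaled by their totals alone, with 20 members called.

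**Figure D1:**
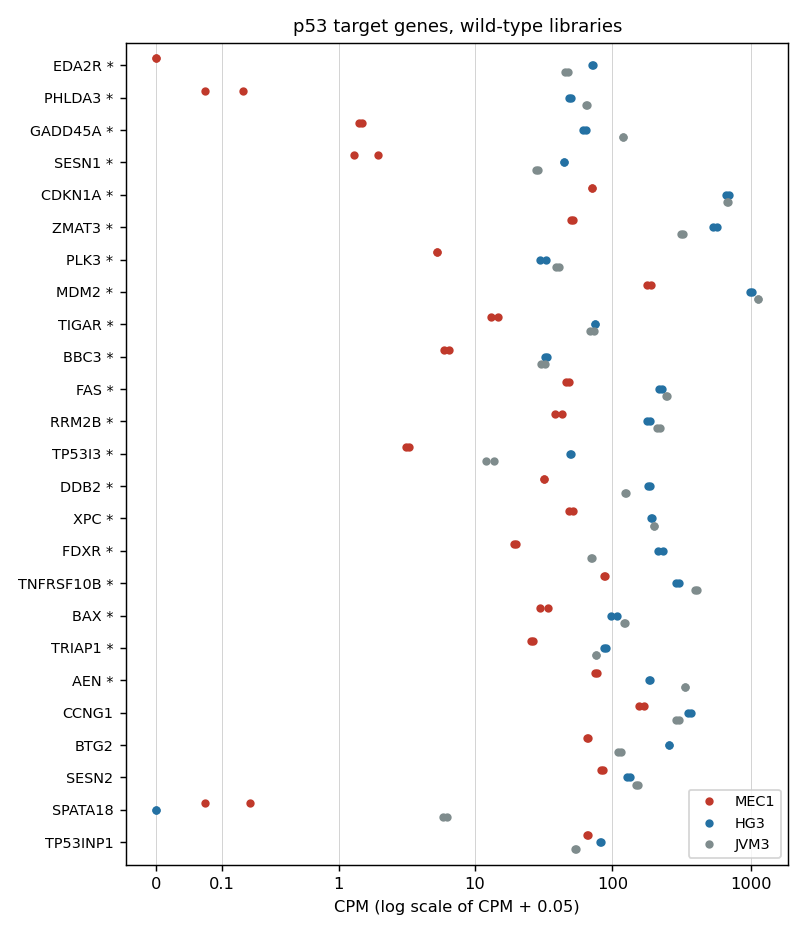
Levels of the 25 p53 target genes in each library, in CPM on a log scale of CPM + 0.05, with MEC1 in red, HG3 in blue and JVM3 in grey; each point is 1 library and an asterisk marks a called gene. From EDA2R, with no count in MEC1 against 45.7 to 71.7 CPM in the other lines, down to AEN, the red points stand to the left of the blue and grey ones.

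MDM2 RNA was lower in MEC1 as well, and the exon joined to exon 3 differed in share between the lines. MDM2 has an upstream promoter whose first exon joins exon 3, and a second promoter in intron 1 that p53 activates, whose transcripts begin with exon 2. The gene had 179 and 190.1 CPM in MEC1, against 988 and 1017 CPM in HG3 and 1126 and 1136 CPM in JVM3. The joined exon ends tell the promoters apart, and both junctions are shown here as the 30 bases around the join in GENCODE release 29 transcripts, with the last 15 bases of the upstream exon in lower case and the first 15 of exon 3 in capitals.
MDM2 exon 1 to exon 3: gatggtgaggagcagGCAAATGTGCAATAC
MDM2 exon 2 to exon 3: tctctgctgatccagGCAAATGTGCAATAC
The exon 2 junction (hg19, chr12:69202866-69202988) had 89 reads in the MEC1 column, against 1543 in the HG3 and 1526 in the JVM3 column. Scaled to the column total this was 5.57 RPM (reads per 1e6 junction reads) in MEC1, against 92.6 in HG3 and 98.2 in JVM3. The exon 1 junction (chr12:69202271-69202988) differed less, with 14.8 RPM in MEC1, against 21.2 in HG3 and 30.5 in JVM3. As a share of all reads at the acceptor of exon 3, the exon 2 junction took 27.3% in MEC1 (95% Wilson interval 22.75% to 32.38%), against 81.4% in HG3 (79.57% to 83.07%) and 76.3% in JVM3 (74.39% to 78.11%). The junction table has 1 column per line, so these values carry counting error only and no test. MDM2 was singled out after its values were seen. Promoter activity was not measured, and the part of p53 in these values was not tested.

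Genes of the BCL2 family, which overlap the p53 list in BAX and BBC3, gave 5 lower members of 15 tested (33.3%, against 12.7% of all genes) and 0 higher. Of the 15, 14 lay below both lines. BCL2L1, which encodes the survival protein BCL-XL, had 20.6 and 18.4 CPM in MEC1, against 107 and 99.8 CPM in HG3 and 186 and 178 CPM in JVM3. BCL2A1, another survival gene and a target of NF-kB, stood at log2 differences of -1.91 against HG3 and -2.82 against JVM3. BCL2L10 was the fifth, at -2.43 and -2.2.

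Genes of DNA replication and mitosis were higher in MEC1, by small amounts. Of 28 tested members of the list, 27 had higher levels than in both lines, and 8 were called higher, where 8.66% of all genes were. The median log2 difference was 0.79 against HG3 and 1.17 against JVM3, and no member was called lower. MCM7, a subunit of the replicative helicase, had 658 and 641 CPM in MEC1, against 236 and 221 CPM in HG3 and 211 and 213 CPM in JVM3. CDC6, which loads that helicase, stood 1.39 and 1.57 higher on the log2 scale, and ORC6, of the origin recognition complex, 1.42 and 1.82 higher. CDT1, a licensing factor close to the 2-fold limit, was not called without MEC1 replicate 1, where its log2 difference from the nearer line was 0.98. The exception was TYMS, thymidylate synthase, with 64.5 and 61.7 CPM in MEC1, against 62.7 and 65.5 CPM in HG3 and 58 and 60.8 CPM in JVM3. No member reached 4-fold against both lines.

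Among cyclins and cell-cycle inhibitors, 22 of them tested, 1 was higher (4.55%) and 2 were lower (9.09%), CDKN1A among them, no more than the 8.66% and 12.7% of all genes. CCND2, the D-type cyclin of B cells, had 43.7 and 44 CPM in MEC1, against 1604 and 1541 CPM in HG3 and 2639 and 2595 CPM in JVM3. It stood 5.17 lower than HG3 on the log2 scale (SE 0.04) and 5.9 lower than JVM3 (SE 0.04; adjusted p = 2.71e-58 by edgeR). CDKN2C, which encodes the CDK4 and CDK6 inhibitor p18, was higher, with 48.9 and 45.5 CPM in MEC1, against 15.4 and 16.1 CPM in HG3 and 0.811 and 1.37 CPM in JVM3.

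The 12 genes that were most raised and the 12 most lowered, ranked by the fold against the nearer line among genes of at least 5 CPM, were nearly all absent from one side. PDE3B, a phosphodiesterase that degrades cyclic AMP, had 38.7 and 43.1 CPM in MEC1, against no count in HG3 and 1 count in JVM3. LDLRAD3, a low-density lipoprotein receptor class membrane protein, had 26.3 and 28.3 CPM in MEC1, against 1 count in HG3 and none in JVM3. CADM1, a cell adhesion molecule, had 20.7 and 22 CPM in MEC1, against 1 count in HG3 and none in JVM3. The cytotoxic granule genes GNLY, granulysin, and GZMK, granzyme K, had 12.8 to 13.1 CPM and 5.96 to 6.34 CPM in MEC1, against at most 1 count per other line. HMX3 (a homeobox gene, 14.3 and 12.1 CPM in MEC1), RECK (a membrane inhibitor of matrix metalloproteinases, 8.13 and 8.9 CPM), LACC1 (7.58 and 8.84 CPM) and B3GALNT1 (a globoside synthase, 7.42 and 8.65 CPM) had no count in either other line. NME8, TPBG and RN7SL471P completed the set, and RN7SL471P belongs to a family of near-identical copies of 7SL RNA, so its count is uncertain.

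Among the genes most lowered, GHR, the growth hormone receptor, had 1 count over both MEC1 libraries, against 134 and 137 CPM in HG3 and 105 and 102 CPM in JVM3. PRRX1, a homeobox gene of mesenchymal cells, had no count in MEC1, against 26.6 and 27.4 CPM in HG3 and 398 and 395 CPM in JVM3. PURPL, a long noncoding RNA known to be induced by p53 and not a member of the list above, had 1 count in MEC1, against 84.2 and 95.1 CPM in HG3 and 122 and 121 CPM in JVM3. With the 2 lines at similar levels and MEC1 at or near 0, GHR and PURPL had adjusted p of 9.34e-50 and 8.21e-47 by edgeR. KCNK1 (a potassium channel), HNF4G (a nuclear receptor), LAMA1 (a laminin chain), BAMBI (a decoy receptor for TGF-beta signalling), SAMD5, MKRN3 and PRICKLE2 (a planar polarity gene) had no count in MEC1 and 13.4 CPM or more in every HG3 and JVM3 library. EDA2R, described above, and TUBA3C, whose near-identical tubulin copies make its count uncertain, completed the set. The 24 genes kept their calls under every alternative fit. Among tested genes, leaving out receptor segments, chromosome Y and XIST, 146 with at least 1 CPM in both other lines had no count in MEC1. In the same set, 18 with at least 1 CPM in MEC1 had no count in either other line.

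Markers of B cells were present in MEC1, and those of CLL only in part. PAX5, the factor that keeps B cell identity, had 220.2 and 209 CPM in MEC1, against 208 and 201 CPM in HG3 and 224 and 215 CPM in JVM3. MS4A1, which encodes CD20, had 813 and 848 CPM in MEC1, against 1222 and 1217 CPM in HG3 and 1044 and 1049 CPM in JVM3. Of 25 tested B cell identity genes 6 were higher in MEC1 (24%, against 8.66% of all genes), 1 was lower and 18 were not called. CR2, the complement receptor CD21, was higher, at log2 differences of 1.34 and 2.28. BANK1, a scaffold of receptor signalling, had 80.7 and 84.1 CPM in MEC1, against 0.028 and 0.0993 CPM in HG3 and 18.1 and 17.2 CPM in JVM3. CD72, CD180 and VPREB3 were also called higher, and TNFRSF13B, the TACI receptor, was lower (-1.24 and -2.02).

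CD5, the surface protein that defines CLL cells among B cells, had 0.108 and 0.0947 CPM in MEC1, against 42.2 and 41 CPM in HG3 and 0.423 and 0.506 CPM in JVM3. CD5 was thus near absent in MEC1 and JVM3 and present in HG3. ROR1, a receptor tyrosine kinase of CLL, followed the same order, with 0.325 and 0.189 CPM in MEC1, against 16.7 and 17.2 CPM in HG3 and 0.705 and 0.744 CPM in JVM3. CD200, an inhibitory ligand used in diagnosis, had 4.58 and 5.3 CPM in MEC1, against 72.7 and 75.6 CPM in HG3 and 101 and 102 CPM in JVM3. Of 15 tested CLL surface genes 4 were lower (26.7%, against 12.7% of all genes), the fourth being CD38, and 2 were higher, CD27 and CD6. FCER2, which encodes CD23, was below both lines and not called, with 187 and 183 CPM in MEC1, against 717 and 667 CPM in HG3 and 341 and 324 CPM in JVM3. ZAP70, a kinase whose presence marks aggressive CLL, lay between the lines, with 2.76 and 2.87 CPM in MEC1, against 26.2 and 25.3 CPM in HG3 and 0 and 0.149 CPM in JVM3.

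Each line carried its own receptor. In MEC1 the heavy chain segment IGHV4-59 took 74.24% and 72.65% of all IGHV counts, against IGHV1-2 with 97.08% and 96.87% in HG3 and IGHV3-7 with 98.72% and 98.47% in JVM3. Among kappa segments IGKV4-1 took 99.9% of IGKV counts in both MEC1 libraries, at 691 and 695 CPM, and had no count in the other lines. The lambda constant gene IGLC3 had no count in MEC1, against 31.3 and 25.2 CPM in HG3 and 0.106 and 0 CPM in JVM3. IGKC, the kappa constant gene, had 94.3 and 88.8 CPM in MEC1, against no count in HG3 and 89.3 and 91.4 CPM in JVM3. Kappa RNA was thus found in MEC1 and JVM3 and lambda RNA mainly in HG3. All IGLV segments together had 2.71 and 3 CPM in MEC1, against 1510 and 1374 CPM in HG3 and 0.494 and 0.655 CPM in JVM3. Further IGHV counts in MEC1 lay in the pseudogene segment IGHV1-68, with 20.4 and 21.5 CPM, against no count in either other line. IGHV1-69 had 13.2 and 13.7 CPM in MEC1, against 3.97 and 3.44 CPM in HG3 and no count in JVM3. IGHV1-24 had 4.33 and 4.8 CPM in MEC1, against 0.14 and 0.132 CPM in HG3 and no count in JVM3. IGHV segments are similar in sequence, and reads shared between them may be split. The source of the MEC1 counts outside IGHV4-59 was not tested.

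RNA of IgG and IgA constant genes was counted in MEC1 beside that of IgM. Counts per gene do not show which variable segment, if any, a constant gene was joined to, so class switching was not tested. IGHM had 1216 and 1116 CPM in MEC1, against 2724 and 2484 CPM in HG3 and 1635 and 1575 CPM in JVM3. IGHG1 had 33.7 and 31.6 CPM in MEC1, against 0.028 and 0.0331 CPM in HG3 and 0.176 and 0.0298 CPM in JVM3. IGHG3 (29.1 and 27.1 CPM in MEC1) and IGHA1 (21.7 and 18.9 CPM in MEC1) were at most 0.529 CPM in every other library. Of 16 constant region genes 12 passed the filter on low values, and of these 5 were called higher (41.7%, against 8.66% of all genes) and 0 lower. A member near 0 in HG3 and JVM3, such as IGHG1, could pass only through MEC1, so this share supports nothing by itself. The remaining called members, IGHG2 and IGHE, were under 0.51 CPM in every library, and both lost their call with DESeq2 and in leave-one-out fits.

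More of the germinal centre genes were higher in MEC1 than were lower. Of 15 tested members 11 lay above both lines. Of the 15, 7 were called higher (46.7%, against 8.66% of all genes) and 3 lower (20%, against 12.7%). The median log2 difference was 1.43 against HG3 and 1.88 against JVM3. MYBL1, a transcription factor of germinal centre cells, had 22.3 and 23.2 CPM in MEC1, against 2.15 and 2.12 CPM in HG3 and 3.56 and 3.72 CPM in JVM3. LMO2 (log2 differences of 4.3 and 3.86) and MEF2B (3.63 and 2.8), 2 further transcriptional regulators of these cells, were under 0.9 CPM in every library of the other lines. STMN1, a microtubule regulator, ELL3 and NEIL1 were also called higher.

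The master regulator of the germinal centre did not follow. BCL6 had 2.14 and 1.99 CPM in MEC1, against 0.336 and 0.298 CPM in HG3 and 2.36 and 2.08 CPM in JVM3, so MEC1 overlapped with JVM3. KLHL6, RGS13 and MME were lower. KLHL6, a ubiquitin ligase adaptor, had 26.3 and 24.4 CPM in MEC1, against 82.5 and 78.9 CPM in HG3 and 233 and 236 CPM in JVM3. MME, which encodes CD10, had no count in MEC1 and at most 0.616 CPM elsewhere, and it lost its call without MEC1 replicate 1 (adjusted p = 0.0523 by edgeR) and without JVM3 replicate 1 (adjusted p = 0.361 by edgeR).

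The activated B cell list ran the other way. It holds costimulatory molecules and genes induced by CD40, NF-kB or the EBV protein LMP1, and 12 of its 19 tested members were lower in MEC1 (63.2%, against 12.7% of all genes) while 0 were higher. DESeq2 gave the same counts, and edgeR gave 16 lower and 0 higher members when only the adjusted p was asked. The median log2 difference was -1.04 against HG3 and -2.2 against JVM3. CD83, an activation marker, had 74.5 and 74.8 CPM in MEC1, against 328 and 328 CPM in HG3 and 419 and 429 CPM in JVM3. CD80 and CD86, the ligands of CD28, stood at log2 differences of -1.99 and -1.6 against HG3 and of -3.18 and -4.22 against JVM3. EBI3, a cytokine subunit first found in EBV-infected cells, had 31.4 and 29.8 CPM in MEC1, against 146 and 137 CPM in HG3 and 417 and 400.1 CPM in JVM3. TRAF1, an adaptor of tumour necrosis factor receptors, had 161 and 161 CPM in MEC1, against 454 and 423 CPM in HG3 and 1134 and 1106 CPM in JVM3. CD40, ICAM1, TNFRSF8 and CCL22 lay close to the 2-fold limit against HG3 and were not called when libraries were scaled by their totals alone. MYC, in the same list, had 235 and 226 CPM in MEC1, against 243 and 232 CPM in HG3 and 231 and 223 CPM in JVM3, so the 3 lines overlapped.

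**Figure D2:**
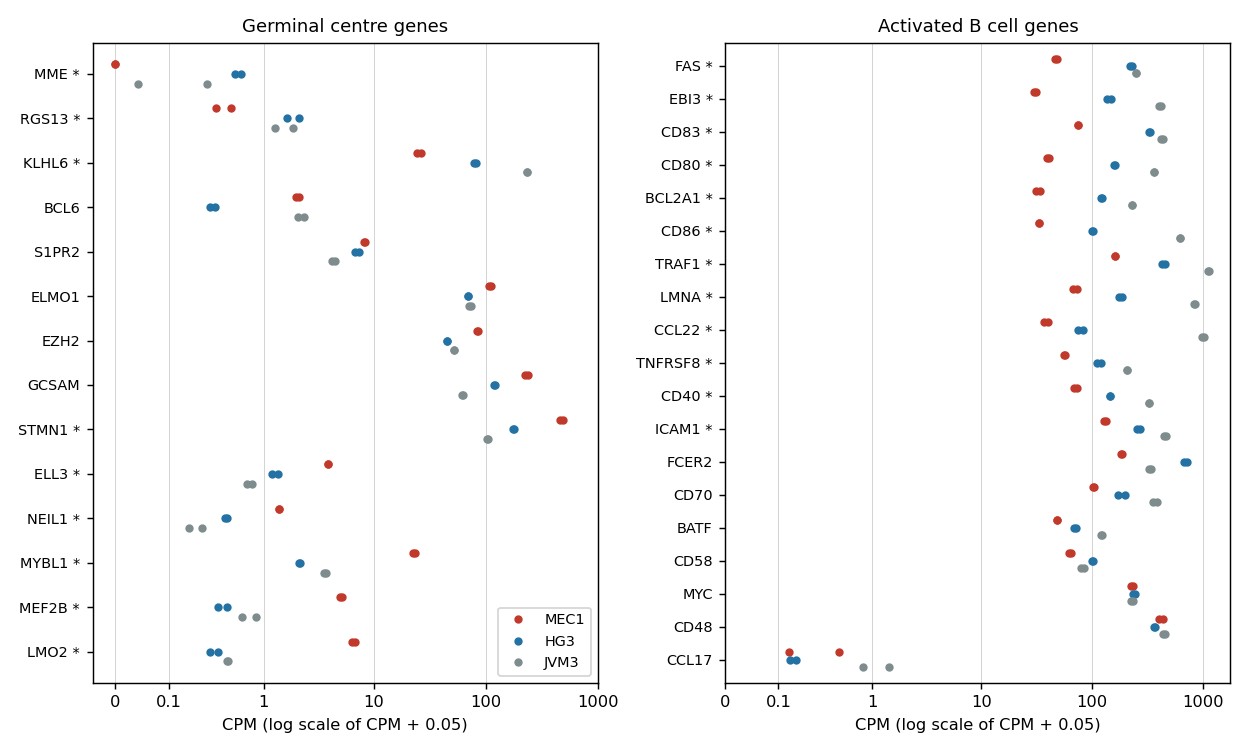
Levels of tested germinal centre genes (left; 14 of 15 drawn) and activated B cell genes (right) in each library, in CPM on a log scale of CPM + 0.05; red is MEC1, blue HG3, grey JVM3, each point 1 library, and an asterisk marks a called gene. MYBL1 stands at 22.3 to 23.2 CPM in MEC1 against 2.12 to 3.72 CPM elsewhere, while CD83 stands at 74.5 to 74.8 CPM in MEC1 against 328 to 429 CPM elsewhere.

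The NF-kB list shares TRAF1 and CD40 with the activated list. Of 25 tested members 6 were lower (24%, against 12.7% of all genes), 1 was higher and 18 were not called, and 21 lay below both lines. TNFAIP3, the inhibitor A20 that NF-kB itself induces, had 79.7 and 81.6 CPM in MEC1, against 565 and 559 CPM in HG3 and 1197 and 1190.0 CPM in JVM3. NFKBIZ, TNFAIP2 and BIRC2, which encodes the ubiquitin ligase cIAP1, were the other members called lower. The exception was LTB, lymphotoxin beta, with 36.3 and 31.9 CPM in MEC1, against 0.476 and 0.199 CPM in HG3 and 2.54 and 2.5 CPM in JVM3.

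Among 17 tested chemokine receptors and homing genes 4 were lower (23.5%, against 12.7% of all genes), 1 was higher and 12 were not called, with median log2 differences of -0.16 against HG3 and -0.03 against JVM3. CCR7, which guides cells to lymph nodes, had 55.7 and 50.1 CPM in MEC1, against 446 and 403 CPM in HG3 and 1763 and 1732 CPM in JVM3. CD44, the hyaluronan receptor, had 61.3 and 60.1 CPM in MEC1, against 486 and 481 CPM in HG3 and 1161 and 1159 CPM in JVM3. CXCR4, the receptor of the marrow chemokine CXCL12, stood at log2 differences of -1.86 and -1.9, and SELPLG, the P-selectin ligand, at -1.84 and -2.49. CCR6 was the 1 called higher. Among 23 tested integrins and adhesion genes 8 were lower (34.8%), led by ITGB8 (2 and 1.89 CPM in MEC1, against 134 and 142 CPM in HG3 and 111 and 115 CPM in JVM3), and 3 were higher, CADM1, ITGAX and ITGA6.

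Among 39 tested lymphoid transcription factors 8 were higher (20.5%, against 8.66% of all genes) and 3 lower (7.69%, against 12.7%). TCF3, which encodes the E protein E2A, had 279.7 and 251 CPM in MEC1, against 70.0 and 64.1 CPM in HG3 and 60.4 and 59.5 CPM in JVM3. Its inhibitor ID3 was higher too, at log2 differences of 1.36 and 1.18, while the inhibitor ID2 was lower, at -2.27 and -2.24. KLF2, a factor of quiescence and trafficking, had 13.9 and 9.69 CPM in MEC1, against 1.23 and 1.42 CPM in HG3 and 0.564 and 0.476 CPM in JVM3. PRDM1, which encodes BLIMP1, the repressor that drives plasma cell differentiation, had 6.47 and 5.65 CPM in MEC1, against 51.9 and 50.7 CPM in HG3 and 27.7 and 28.1 CPM in JVM3. FOXO1, RUNX1, TOX and TOX2 were also higher. FOXP1 was lower but lost its call without MEC1 replicate 1 (adjusted p = 0.0684 by edgeR).

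Of 17 tested plasma cell genes 2 were higher, DERL3, a gene of endoplasmic reticulum quality control, and CD27, and 2 were lower, PRDM1 and CD38. Each is 11.8% of the list, near the 8.66% and 12.7% of all genes. Of 33 tested genes of B cell receptor signalling 5 were higher (15.2%, against 8.66% of all genes) and 1 was lower. BLK, a Src family kinase of B cells, had 199.6 and 187 CPM in MEC1, against 56.4 and 59.7 CPM in HG3 and 54.4 and 53.4 CPM in JVM3. PRKCB, a protein kinase C isoform of receptor signalling, was lower, with 102 and 107 CPM in MEC1, against 476 and 469 CPM in HG3 and 305 and 309 CPM in JVM3.

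No listed gene of antigen presentation was called. Of 18 tested genes of MHC class II and 18 of MHC class I, 0 passed in either direction by edgeR, and 0 by DESeq2. With no fold minimum and an unadjusted p under 0.05, 1 class II gene was higher and 0 were lower, and 2 class I genes were higher and 9 lower. Scaled by library totals alone, 1 class I gene was called higher. HLA-DRA, a class II chain, lay between the lines, with 1143 and 1137 CPM in MEC1, against 2459 and 2385 CPM in HG3 and 727 and 734 CPM in JVM3. B2M, the class I light chain, had 1977 and 2052 CPM in MEC1, against 2517 and 2575 CPM in HG3 and 3320.3 and 3437 CPM in JVM3. The 37 tested interferon-response genes gave 5 lower (13.5%, near the 12.7% of all genes) and 0 higher, with a median log2 difference of -0.01 against HG3 and -1.38 against JVM3. IFIT2, a translation inhibitor induced by interferon, was lowest in MEC1, with 19.3 and 19.7 CPM in MEC1, against 122 and 124 CPM in HG3 and 411 and 416 CPM in JVM3.

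Among 34 tested cytokines and their receptors 4 were higher (11.8%) and 6 lower (17.6%), near the 8.66% and 12.7% of all genes. IL10, an anti-inflammatory cytokine and growth factor of B cells, had 19.7 and 19.9 CPM in MEC1, against no count in HG3 and 0.564 and 0.923 CPM in JVM3. IL6R, the interleukin 6 receptor, had 0.596 and 0.694 CPM in MEC1, against 21.9 and 21.8 CPM in HG3 and 102 and 99.9 CPM in JVM3. Among 30 CLL driver genes 4 were lower (13.3%, near the 12.7% of all genes) and 1 was higher (3.33%). Besides KLHL6, the lower ones included FBXW7, the ubiquitin ligase adaptor that degrades NOTCH1 and MYC (log2 differences of -1.74 and -1.9), and NOTCH1 itself, which lay near the limit (-1.04 and -1.38) and lost its call when libraries were scaled by totals. SAMHD1, a nucleotide hydrolase, was higher (2.33 and 1.03) and lost its call without JVM3 replicate 1.

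Cancer-testis antigen genes, normally silent outside the germ line, were low or without a count in MEC1. Of 23 with a row of counts, 13 passed the filter on low values, and of these 11 were lower, and 10 of these had no count in either MEC1 library. Such genes passed only through the lines where they were present, so this count supports nothing by itself. MAGEA1 had no count in MEC1, against 1.09 and 0.795 CPM in HG3 and 71 and 70.3 CPM in JVM3. Many of these genes were near 0 in 1 other line as well, and MAGEA4, MAGEC1 and PRAME lost their calls in leave-one-out fits. Near-identical MAGE genes share reads, so their separate counts are uncertain. Of 27 homeobox genes 15 passed the same filter, and of these 5 were lower (33.3%, against 12.7% of all genes) and 0 higher. A member with no count in MEC1 could pass only through the other lines, so this share too supports nothing by itself. PBX3, a partner of HOX proteins, was called lower, with 24.3 and 25 CPM in MEC1, against 71.5 and 73.6 CPM in HG3 and 70.0 and 69.3 CPM in JVM3. HOXB7 lost its call with library totals alone, with a replicate block and without MEC1 replicate 1.

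**Figure D3:**
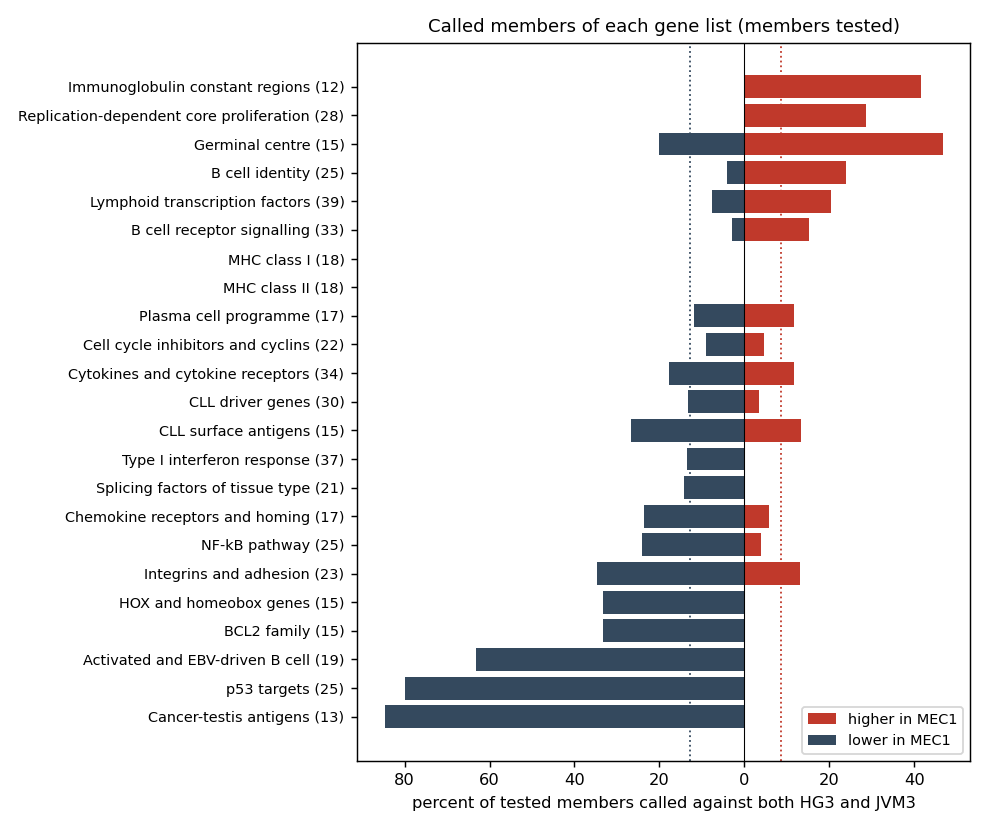
Percent of the tested members of each gene list called higher (red, to the right) or lower (dark blue, to the left) in MEC1 than in both HG3 and JVM3, for lists of at least 10 tested members, with their number in brackets; dotted lines mark the share of all genes called, 8.66% higher and 12.7% lower. Cancer-testis antigens, p53 targets and activated B cell genes reach farthest to the left, with 84.6%, 80% and 63.2% of members lower.

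Markers of other cell types were low, with a few exceptions. The 9 T cell markers in the table summed to 42.2 and 45.5 CPM in MEC1, against 103 and 98.7 CPM in HG3 and 12.2 and 12.8 CPM in JVM3, nearly all of it LCK, a kinase also found in CLL. CD3D, CD3G and TRBC1 had no count in MEC1. Of 5 tested T cell markers 1 was called higher, CD3E, and 1 lower (20% each, against 8.66% and 12.7% of all genes). CD3E lost its call with DESeq2 and in leave-one-out fits. The 6 markers of natural killer cells summed to 15.5 and 14.4 CPM in MEC1, against 0.392 and 0.464 CPM in HG3 and 0.74 and 0.536 CPM in JVM3. GNLY made up most of that sum, while NCAM1, KLRD1 and NCR1 were each at or under 0.11 CPM in MEC1. Only 3 of the 6 passed the filter on low values, and all 3 were called higher, where 8.66% of all genes were, GNLY and NKG7 among them. A member near 0 in HG3 and JVM3 could pass only through MEC1, so this count supports nothing by itself. NKG7 lost its call with DESeq2 and without MEC1 replicate 1. The 8 myeloid markers summed to 2.87 and 2.18 CPM in MEC1, against 10.5 and 10.8 CPM in HG3 and 16.9 and 16.5 CPM in JVM3. Erythroid and megakaryocyte markers stayed under 0.42 CPM in sum in every library, and 4 of the 6 had no count in MEC1. Fibroblast and endothelial markers summed to 2.22 and 2.12 CPM in MEC1, against 4.22 and 4.54 CPM in HG3 and 4.09 and 4.71 CPM in JVM3. Epithelial markers summed to 14.7 and 15.5 CPM in MEC1, against 4.31 and 5.23 CPM in HG3 and 14.2 and 15.3 CPM in JVM3, mostly from CDH1. TRBC2, a T cell receptor constant gene, was higher in MEC1. It had 39.2 and 36.8 CPM there, against 0.028 and 0.0331 CPM in HG3 and 2.75 and 2.47 CPM in JVM3. Joining segments of the T cell receptor alpha gene, at low levels in every line, went the other way and were called lower. Among them, TRAJ49 had 0.0542 and 0.0631 CPM in MEC1, against 1.06 and 1.09 CPM in HG3 and 0.952 and 1.1 CPM in JVM3.

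Blocks of neighbouring genes were shifted together in MEC1. Genes were put in the order of GENCODE release 29 and cut into 278 windows of 40 neighbours of at least 5 CPM in some line, a step added after the data were seen. Of 11120 genes in windows, 38.6% were below both lines and 36% above both. The first 5 windows of chromosome 17, from RFLNB to NLK, had median log2 differences of -0.89 to -1.1 against HG3 and of -0.79 to -1.16 against JVM3, while the sixth, from TMEM97 to ATAD5, stood at -0.17 and -0.14. In the third of these, from ALOX12P2 to AURKB, 37 of 40 genes were below both lines. The last 4 windows of chromosome 6, from HACE1 to CHP1P2, had medians of -0.88 to -1.1 against HG3 and of -0.81 to -1.07 against JVM3, with 30 to 34 of 40 genes below both.

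Chromosome 9 held blocks of both signs. Its first window, from WASHC1 to PLIN2, stood at -1.03 against HG3 and -1.09 against JVM3, with 35 of 40 genes below both lines. Its last 7 windows, from TUT7 to TRAF2, stood at 0.41 to 0.75 against HG3 and at 0.63 to 0.82 against JVM3, and in the one from KYAT1 to GBGT1 37 of 40 genes were above both. On chromosome 7, 7 windows had medians of at least 0.4 against both lines, the first of them from PDGFA to ZNF815P with 0.71 and 0.7. On chromosome 12 the window from TUBA1A to MFSD5 stood at -0.88 against HG3 and -1.72 against JVM3, with 37 of 40 genes below both, but the whole chromosome had a median of -0.71 against JVM3 and of only -0.1 against HG3. DNA copy number was not analysed here, and a shift common to HG3 and JVM3 cannot be told apart from one in MEC1.

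**Figure D4:**
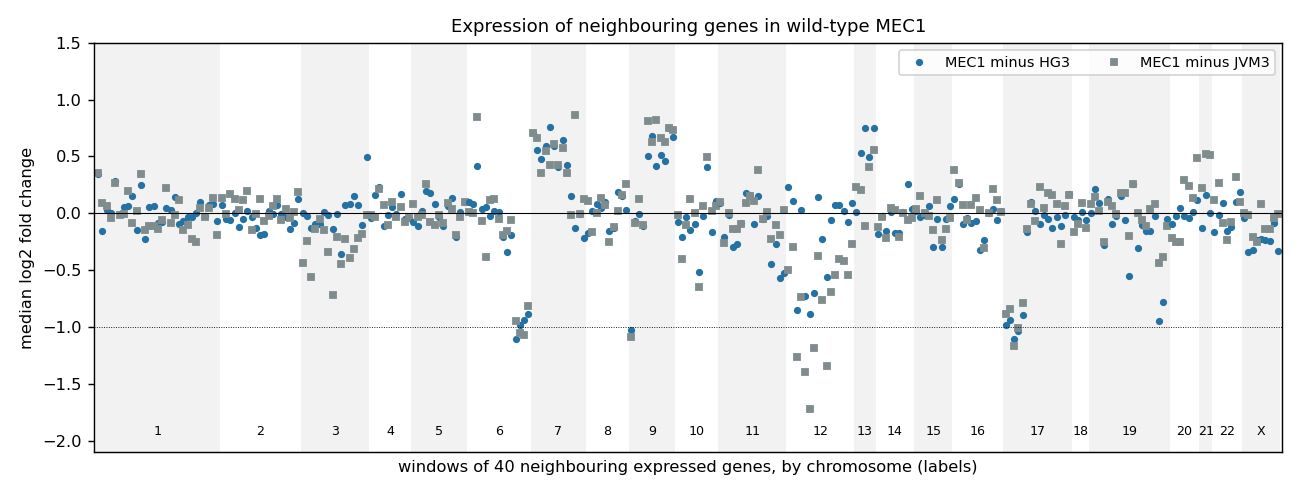
Median log2 difference of each window of 40 neighbouring expressed genes along the chromosomes (numbers at the foot of the plot), MEC1 minus HG3 as blue circles and MEC1 minus JVM3 as grey squares, with a dotted line at -1. The start of chromosome 17, the end of chromosome 6 and the start of chromosome 9 lie near -1 for both comparisons, and 7 windows on chromosome 7 and the last 7 on chromosome 9 lie at 0.4 or above.

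Splicing of the wild-type lines was compared as the share of reads that each junction takes at its acceptor, the start of the downstream exon. The wild-type columns held 15976355 junction reads in MEC1, 16659496 in HG3 and 15537369 in JVM3. Of 70829 junctions at 29205 acceptors with at least 20 reads in each column, 246 (0.347%) were used more in MEC1 than in both lines by at least 20 points with separate 95% Wilson intervals, and 235 (0.332%) were used less. There is 1 column per line, so no test was possible and the intervals cover counting error only. Among junctions matched to a gene, GENCODE release 29 lacked 18.1% of the ones that MEC1 used more. It lacked 7.66% of the ones MEC1 used less, and 37.8% of the remaining matched junctions. By the rule, a junction counted here takes at least 20% of its acceptor in some line. The remaining ones include rarely used junctions, so these shares are of unlike sets.

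By this measure a junction can gain share only where another upstream exon end loses it before the same exon start. The junctions used more and less thus largely mirror each other, at 278 acceptors. Of the 8 most raised junctions with a gene name, 4 are shown with the base runs on either side of the join in GENCODE release 29 transcripts. The exchanged exon ends (lower case) can so be compared over the shared exon start (capitals).
PTPRC used more: cttttaataccacagGTGTTTCATCAGTAC
PTPRC used less: caccttcccccactgGTGTTTCATCAGTAC
SLC3A2 used more: atgccgagatgatagAGACGGGGTCTGACT
SLC3A2 used less: cgggggacgactcagAGACGGGGTCTGACT
NEDD9 used more: aaaatgtggacaaggAATCTTATGGCAAGG
NEDD9 used less: gaaatgaagtataagAATCTTATGGCAAGG
FANCI used more: aaaccctgagagaagTTGACTAATCTCCTT
FANCI used less: ctgagagaaggtgatTTGACTAATCTCCTT

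PTPRC encodes CD45, the phosphatase that activates Src family kinases at antigen receptors, and its variable exons A, B and C are included or skipped by cell type. Exon A joined exon B (hg19, chr1:198666038-198668693) in 92.4% of 463 acceptor reads in MEC1 (89.67% to 94.51%), against 19.5% of 478 in HG3 (16.16% to 23.24%) and 34.2% of 591 in JVM3 (30.47% to 38.09%). The junction that skips exon A (chr1:198661502-198668693) took 7.56% in MEC1, against 80.5% in HG3 and 65.8% in JVM3. Exon C behaved likewise: the junction from exon B past exon C (chr1:198668833-198672427) had 0 of 627 acceptor reads in MEC1 (Wilson upper bound 0.609%), against 60.5% of 425 in HG3 and 40% of 610 in JVM3. Reads that include exons A and C thus prevailed in MEC1, while the other columns held both kinds of read.

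Among 21 tested splicing factors of tissue type 3 were lower (14.3%, near the 12.7% of all genes) and 0 higher. HNRNPLL, which encodes an RNA-binding protein known to promote skipping of the CD45 variable exons, had 1.3 and 1.2 CPM in MEC1, against 57.3 and 58.9 CPM in HG3 and 31.2 and 32.2 CPM in JVM3. Its log2 differences were -5.53 (SE 0.1) and -4.66 (SE 0.11), with an adjusted p of 3.46e-38 by edgeR. Its part in the use of the CD45 exons was not tested. The other called factors, ELAVL2 and ELAVL4, were at 0 in MEC1 and at most 1.66 CPM elsewhere, and lost their calls in leave-one-out fits. PTBP1, a repressor of many exons, was not called, with 219 and 206 CPM in MEC1, against 221 and 219 CPM in HG3 and 220.2 and 219.9 CPM in JVM3.

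SLC3A2 encodes the heavy chain of CD98, the partner of amino acid transporters. An annotated junction on chromosome 11 (chr11:62638309-62639049) took 61.5% of 382 acceptor reads in MEC1 (56.55% to 66.26%), against 0 of 112 in HG3 (Wilson upper bound 3.32%) and 0 of 138 in JVM3 (Wilson upper bound 2.71%). In the other lines all reads at that acceptor came from the competing exon end at 62623853.

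NEDD9, a scaffold of integrin signalling, joined its shared exon to a distal exon end (chr6:11213960-11306225) in 88.9% of 135 MEC1 reads (82.48% to 93.15%), against 34.5% of 310 in HG3 (29.44% to 39.97%) and 21.4% of 248 in JVM3 (16.73% to 26.89%). In FANCI, a Fanconi anaemia gene of DNA crosslink repair, the competing exon ends lie 5 bases apart. The shorter end (chr15:89790957-89801935) took 56.2% of 313 reads in MEC1, against 7.9% of 291 in HG3 and 11.1% of 172 in JVM3. In NAA38, an auxiliary subunit of an N-terminal acetyltransferase, an unannotated junction on chromosome 17 (chr17:7760516-7786553) took 72.5% of 167 reads in MEC1, against 21.9% of 251 in HG3 and 27.2% of 162 in JVM3. A junction named for HLA-B (chr6:31237862-31323094) spans near-identical HLA genes, so its alignment is uncertain: it took 89.9% in MEC1, against 47.2% in HG3 and 0.12% in JVM3.

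**Figure D5:**
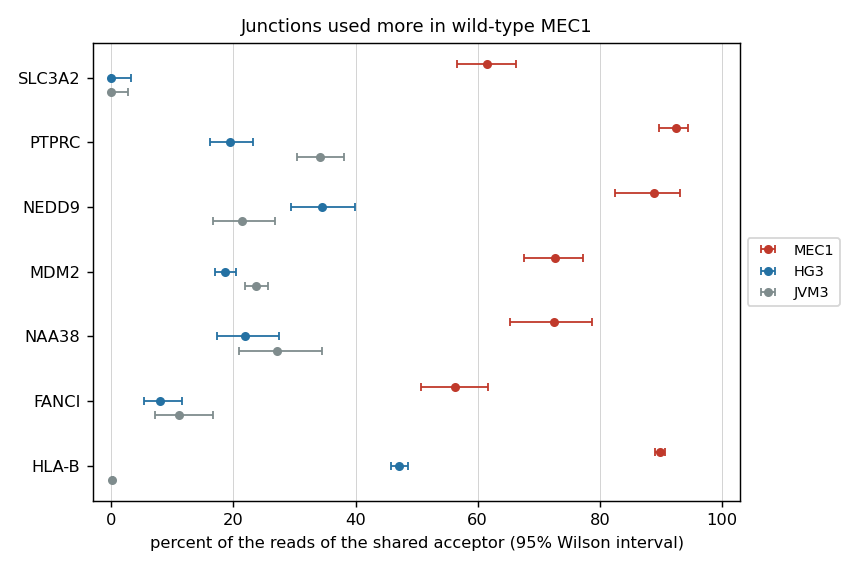
Percent of the reads of the shared acceptor taken by 7 of the gene-matched junctions most raised in MEC1, with MEC1 in red, HG3 in blue and JVM3 in grey; each point is the 1 column of a line and bars are 95% Wilson intervals. In SLC3A2 MEC1 stands at 61.5% against no read in the other lines, and in PTPRC at 92.4% against 19.5% to 34.2%.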

How the data were processed

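RNA sequencing of 3 cell lines was used, with 2 wild-type libraries per line. Trizol-extracted RNA was depleted of ribosomal RNA before stranded library preparation, per the labels' protocols. The tools named are STAR 2.5.4b and HTSeq 0.9.1, and the builds hg19 and GRCh37, per the submitters' processing notes. Which strand option and gene annotation were used in counting was not given in the sources used here, so overlapping and antisense genes may share reads. The authors deposited raw read counts per gene for 57820 IDs, of which 51996 had a symbol, and raw junction counts with 1 column per line. Lines of the table that name no gene were left out.

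Counts of the 6 libraries were fitted as 3 groups with edgeR 4.0.16 (robust quasi-likelihood, TMM, filterByExpr, 3 residual degrees of freedom) in R 4.3.3. Alternatives included DESeq2 1.42.0. Replicates of a line differed by more than counting noise (mean chi-square per gene of 4.12 in MEC1, 3.61 in HG3 and 2.39 in JVM3), so each library was counted separately. A fold against no count used a floor of 3 counts over both libraries of a line, which like all intervals covers counting error only. Named genes were the 12 highest and 12 lowest called genes by fold against the nearer line with a symbol and at least 5 CPM, leaving out genes of chromosome Y, XIST and receptor segments, and called members of 29 gene lists. Some genes that these rules name are not reported here. Junctions were named as the 8 most raised and 8 most lowered among those matched to a gene name with at least 100 acceptor reads in each column, which leaves out unmatched junctions of like size. Members, lists and rules were chosen with earlier results of these data known, and so support nothing by themselves.

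The junction file has no gene names, so 39160 of 43547 clusters (89.9%) were matched to GENCODE release 29, which is on another build, by exact intron lengths, and 0.35% matched when offered a wrong chromosome. Coordinates are those of the file, in hg19. Scripts were tested on simulated data.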

Additional observations from a re-analysis of the deposited data

How the results depend on the processing

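Counts of genes higher and lower in MEC1, 1709 and 2503, were 1703 and 2504 with RLE size factors, 1989 and 2269 with library totals alone, 1444 and 2255 with DESeq2, 1807 and 2652 with no filter, 1276 and 1978 with at least 1 CPM, and 1632 to 1739 and 2305 to 2502 when each library was left out. Scaling by library totals moved the median of all genes by 0.08 against HG3 and 0.17 against JVM3. A 4-fold minimum gave 740 and 1579, and a contrast against the mean of both lines 3037 and 3916, each by its construction. With the 4-fold minimum, 13 p53 targets and 3 activated B cell genes were lower, and 4 germinal centre and 0 proliferation genes were higher, and the mean contrast gave 13 proliferation genes. Leaving out each library gave 20 p53 targets, 9 to 12 activated B cell genes, 7 germinal centre genes, 7 to 9 proliferation genes and 8 to 11 cancer-testis genes. Activated B cell genes numbered 8 with library totals alone. Junctions used more and less were 40 and 40 at 40 points, 148 and 139 as shares of donor reads, 166 and 162 with at least 50 reads and 244 and 234 with columns thinned to one total. The cause of the change with donor shares was not tested.

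Deviations of replicates correlated weakly and positively between lines (0.184, 0.102 and 0.0989), and the main fit did not pair samples by replicate number. A replicate block gave 1698 higher and 2480 lower genes. Of 173 genes recomputed, 0 reversed and 21 lost a call in at least 1 fit. Levels under 0.05 CPM, the floor of 3 counts, cannot be told from 0.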

Other observations

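Some runs of at least 4 genes along a chromosome differed from both lines by at least 4-fold in 1 direction. Higher runs were sought only among tested genes under 1 CPM in both other lines, so low levels there follow from the rule. Lower runs were sought among genes of at least 2 CPM in both. Genes outside these limits were skipped, so members of a run need not be adjacent. Of 8 runs higher in MEC1, which hold 38 genes, the longest lay on chromosome 10 and ended in HMX3. Its 7 genes, PLEKHA1, HTRA1, DMBT1, CUZD1, FAM24B, C10orf88B and HMX3, averaged 1.09 to 13.8 CPM in MEC1, against at most 0.0305 CPM in HG3 and 0.0678 CPM in JVM3. On chromosome 1 a run held the cytokine genes IL10 and IL19 and the gene CR1L. Their means were 19.8, 4.14 and 12.1 CPM in MEC1, against at most 0.0166 CPM in HG3 and 0.744 CPM in JVM3. On chromosome 13 LACC1 was in a run with CCDC122 (8.2 CPM in MEC1, against 0.0305 CPM in HG3 and no count in JVM3), ENOX1 and TNFSF11, which encodes RANKL. The antisense and overlapping members of such runs may share reads.

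There were 4 runs of 4 genes lower in MEC1, 16 genes in all. On chromosome 3 ROBO1 and ROBO2, receptors of the guidance cue SLIT, averaged 0.781 and 0.722 CPM in MEC1, against 472 and 67.1 CPM in HG3 and 562 and 11 CPM in JVM3. On chromosome 12 the tetraspanin gene CD9, PLEKHG6, the receptor gene TNFRSF1A and CD27-AS1 were lower, the last at 3.67 CPM in MEC1, against 22.6 CPM in HG3 and 25.4 CPM in JVM3. CD27 itself, which CD27-AS1 overlaps, was higher in MEC1, with 91 and 82.4 CPM, against 17 and 16.6 CPM in HG3 and 16.8 and 15.6 CPM in JVM3. On chromosome 19 the zinc finger genes ZNF93, ZNF682 and ZNF90 averaged 0.124 to 3.17 CPM in MEC1, against 25.7 to 41 CPM in HG3 and 14.5 to 17.5 CPM in JVM3.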
